A study of Mus musculus with 6 samples.

Results

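The interferon-200 (Ifi200) genes and the Fc gamma receptor genes lie near each other on mouse chromosome 1, in a region of the NZB genome known from lupus mapping studies. They were followed in liver RNA of NZB against SM mice. The members were 9 named genes: Ifi202b, Ifi203, Ifi204, Ifi205, Aim2, Mndal, Fcgr2b, Fcgr3 and Fcgr4. All probe sets that the platform annotation pairs with 1 of these genes alone were taken, which gave 13 of the 45037 probe sets on the arrays. They stand for 8 genes, with 6 probe sets for 5 Ifi200 genes and 7 for the 3 Fc gamma receptors. Ifi205 had no probe set of its own. A further 6 probe sets list a member together with other genes, and they are described apart. The groups were untreated females of the inbred strain NZB/BinJ (NZB, 3 mice) and of the inbred strain SM/J (SM, 3 mice), all aged 8 weeks, with 1 array per mouse. Both strains ate chow after weaning at 3 weeks, were fasted for 4 hours and were perfused with 50 mL of saline before the liver was taken. The RNA is that of whole liver, so all cell types of the organ contribute to it.

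Ifi200 proteins carry a DNA-binding HIN domain, many of them joined to a pyrin domain, and their genes are induced by interferons. Aim2 senses double-stranded DNA in the cytosol and recruits the adaptor Pycard to activate caspase-1, while the mouse protein made from Ifi202b lacks a pyrin domain and is known to hold Aim2 back. Fc gamma receptors bind IgG: Fcgr3 and Fcgr4 activate cells through a common signalling chain, encoded by Fcer1g, and Fcgr2b is the inhibitory receptor. In liver, Fcgr2b is known to be abundant on sinusoidal endothelial cells, which clear immune complexes, and macrophages such as Kupffer cells carry these receptors too. NZB mice are a classic model of spontaneous autoimmunity.

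The reference letters in front of the Ifi200 genes are shown because some of them hold the letters of the element through which interferon is known to act on such genes. They come from RefSeq (assembly GRCm38.p6, strain C57BL/6J, so neither NZB nor SM), which held an entry for 8 of the 9 members. The 250 bases upstream of each listed start were searched on both strands for the letters of an interferon-stimulated response element, taken as GAAA, any 2 bases, and GAAA again. These letters were present for 3 of 5 Ifi200 members (Mndal, Ifi203 and Ifi205), for 6 of 7 other Ifi200 family genes and for 1 of 3 Fc gamma receptors (Fcgr4), against 2.98% of all 32851 promoters searched. A gene was counted where any of its listed starts had a match, whereas shares of all promoters, here and below, count each listed start. The first listed start of Ifi203 had no match. The windows of 60 bases below run 5′ to 3′ on the strand of the gene, with the match in capitals. They lie at chr1:173880189-173880248 for Mndal, chr1:173942493-173942552 for the second of the listed starts of Ifi203, chr1:174031855-174031914 for Ifi205 and chr1:173741816-173741875 for the family member Ifi207, all on the minus strand.
Mndal: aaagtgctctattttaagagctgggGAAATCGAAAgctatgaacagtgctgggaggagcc
Ifi203: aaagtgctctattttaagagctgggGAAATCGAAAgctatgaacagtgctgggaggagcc
Ifi205: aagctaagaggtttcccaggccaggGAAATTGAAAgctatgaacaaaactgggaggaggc
Ifi207: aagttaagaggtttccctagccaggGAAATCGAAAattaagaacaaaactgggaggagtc
The Mndal and Ifi203 windows were identical in 60 of 60 bases, Ifi205 and Ifi207 in 52 of 60, and Mndal and Ifi205 in 40 of 60. The match began 36 bases upstream of the start in Mndal, 35 in Ifi203, 134 in Ifi205 and 41 in Ifi207.

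For Ifi202b and Aim2 these letters were not in the window searched. Ifi202b was the only member with a match to TTCNNNGAA, the letters of an interferon gamma activated site, which 7.02% of all promoters hold. Its 250 bases upstream, at chr1:173982845-173983094 on the minus strand, show that match in capitals.
Ifi202b: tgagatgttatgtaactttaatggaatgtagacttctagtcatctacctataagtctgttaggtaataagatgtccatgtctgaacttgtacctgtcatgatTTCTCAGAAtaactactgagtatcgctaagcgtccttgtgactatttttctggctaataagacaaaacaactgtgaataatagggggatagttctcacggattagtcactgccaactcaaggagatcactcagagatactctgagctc
GAGGAA, core letters of a site for the myeloid factor PU.1, were found for Fcgr3, Fcgr4 and Aim2 and not for Fcgr2b, against 23.3% of all promoters. The letters upstream of the activating receptors follow, at chr1:171018676-171018925 on the plus strand for Fcgr4 and chr1:171059404-171059653 on the minus strand for Fcgr3. Capitals mark GAGGAA on either strand and, as the longer run in Fcgr4, the response element.
Fcgr4: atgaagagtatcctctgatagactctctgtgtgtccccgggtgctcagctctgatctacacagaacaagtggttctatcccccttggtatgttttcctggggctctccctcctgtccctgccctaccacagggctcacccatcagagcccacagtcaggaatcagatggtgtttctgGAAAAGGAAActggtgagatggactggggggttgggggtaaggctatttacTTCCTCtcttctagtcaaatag
Fcgr3: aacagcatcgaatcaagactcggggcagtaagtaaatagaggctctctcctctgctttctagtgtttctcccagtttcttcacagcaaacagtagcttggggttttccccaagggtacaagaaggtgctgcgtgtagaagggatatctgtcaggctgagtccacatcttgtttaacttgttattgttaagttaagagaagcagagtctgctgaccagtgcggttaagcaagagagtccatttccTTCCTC
Each match describes the reference letters alone and says nothing of a bound factor.

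Values are log2 expression levels after RMA, a procedure that makes the arrays comparable and gives 1 value per probe set. Array medians lay between 6.60 and 6.66, and the highest reading of 9 probe sets of Y-linked genes, 5.67, was taken as a rough background in these females. The 9 hepatocyte markers averaged 13.7 to 13.7 on NZB arrays and 13.8 to 13.8 on SM arrays, so both groups read as liver. The array of SM replicate 2 stood apart in Xist, the RNA of the inactive X chromosome, with 7.32 on the brightest of 3 probe sets against 12.6 to 12.9 on the other 5 arrays. Results are therefore also given without it. A difference is NZB minus SM, with its standard error (SE), and a probe set was called where limma's Benjamini-Hochberg adjusted p over all 45037 probe sets was under 0.05. With 3 arrays per strain an exact permutation test of 1 probe set cannot go below p = 0.1, so none was used.

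Of the 13 member probe sets, 8 were called higher in NZB and none lower. Over all probe sets 14.8% were called, 6.09% higher and 8.69% lower. The higher probe sets were 6 of the 7 for Fc gamma receptors, 4 of them for the single gene Fcgr2b, and 2 of the 6 for Ifi200 genes. By gene, through the brightest probe set, 4 of 8 members were higher, against 7.09% of all genes. The median difference over the members was 0.25, against 0.023 over all probe sets. The 3 NZB arrays lay wholly above the 3 SM arrays for 9 member probe sets and wholly below for none, against 18.2% and 16.1% of all probe sets, or 34.3% with no overlap. The count of higher probe sets was 4 with any 1 NZB array left out and 5 with any 1 SM array left out, SM replicate 2 included. The higher count over all probe sets fell too, from 2745 with all arrays. It was 1482 to 1898 with 1 NZB array left out and 1635 to 2482 with 1 SM array left out. The probe sets called under each of 13 alternatives were those of Fcgr3, Fcgr4 and Ifi203 and 1 of Fcgr2b.

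**Figure D1:**
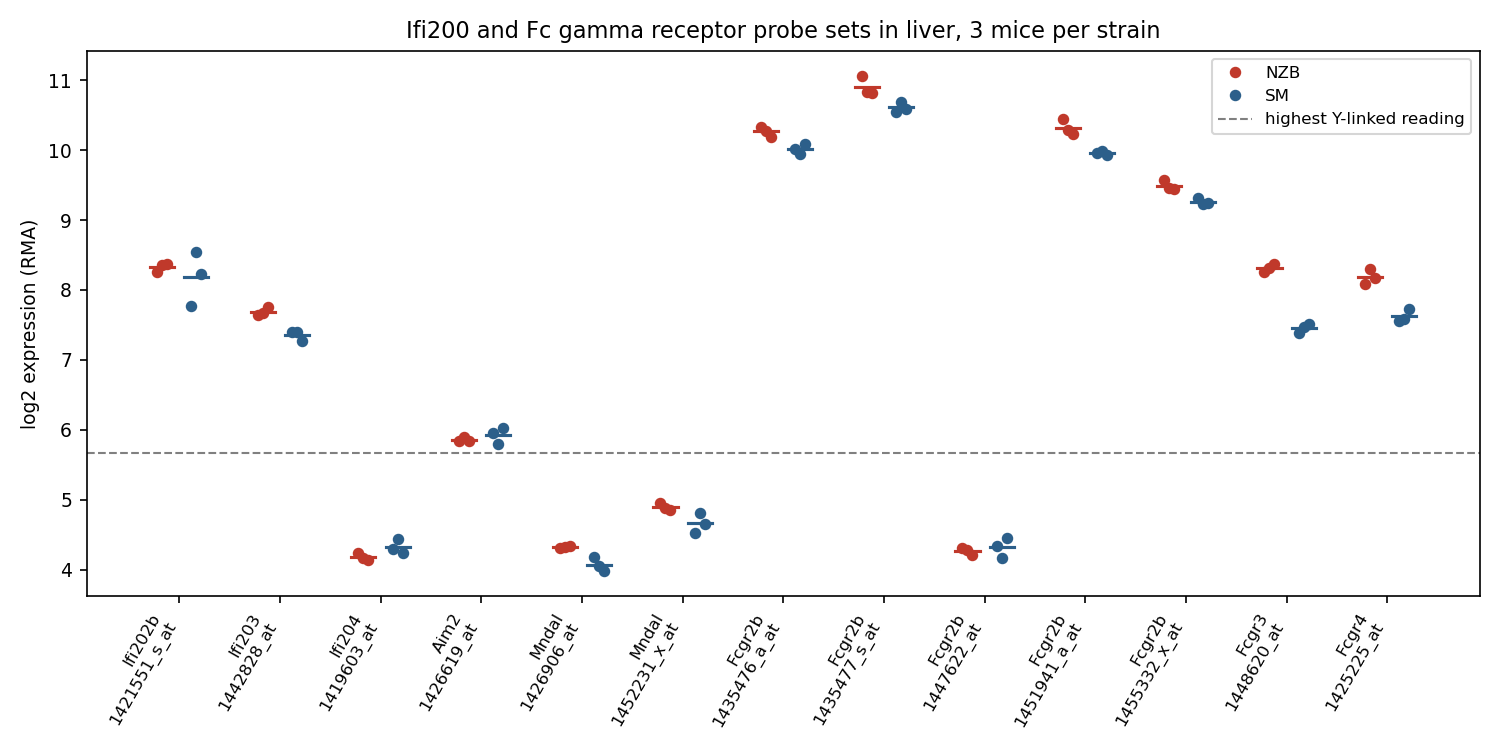
Log2 expression of the 13 member probe sets on each array, with NZB in red to the left of SM in blue; points are single mice, short bars are strain means, and the dashed line is the highest Y-linked reading of 5.67. Fcgr3 and Fcgr4 separate the strains most widely, while 4 probe sets lie under the line on all 6 arrays.

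Fcgr3, an activating receptor for IgG complexes on macrophages, neutrophils and NK cells, differed most of all members. Its probe set, 1448620_at, read 8.26, 8.32 and 8.37 in the NZB livers, against 7.38, 7.47 and 7.51 in the SM livers. Every NZB liver was above every SM liver, and the gap between the strains was wider than the range within either. The level averaged 8.32 ± 0.053 in NZB and 7.45 ± 0.066 in SM (SD, n = 3 each), a 1.82-fold higher level in NZB (difference 0.86, SE 0.065, 95% interval 0.72 to 1.01, limma adjusted p = 6.39e-05). The difference was 0.87 without SM replicate 2 (adjusted p = 0.00066).

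Fcgr4, the other activating receptor, found on monocytes, macrophages and neutrophils, read 8.08, 8.30 and 8.17 in NZB livers through 1425225_at, against 7.56, 7.59 and 7.73 in SM livers. The strains did not overlap here either. The level was 1.47-fold higher in NZB (0.55, SE 0.079, 95% interval 0.38 to 0.73, limma adjusted p = 0.00209). Without SM replicate 2 the difference was 0.54 (adjusted p = 0.0122).

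Fcgr2b, the inhibitory receptor, was covered by 5 probe sets, of which 4 were higher in NZB by 0.23 to 0.36, or 1.17- to 1.28-fold. The probe set 1451941_a_at read 10.4, 10.3 and 10.2 in NZB livers, against 9.96, 9.99 and 9.94 in SM livers (0.36, SE 0.071, limma adjusted p = 0.0104), and it passed the test under all 13 alternatives (0.37 and adjusted p = 0.0342 without SM replicate 2). The brightest, 1435477_s_at, read 11.1, 10.8 and 10.8 in NZB livers, against 10.5, 10.7 and 10.6 in SM livers (0.29, SE 0.084, adjusted p = 0.0459). The strains did not overlap in any of the 4, but the gaps were small next to that of Fcgr3. The other higher probe sets were 1435476_a_at (0.26, adjusted p = 0.0364) and 1455332_x_at (0.23, adjusted p = 0.0437). The fifth, 1447622_at, stayed under background on all 6 arrays and did not pass (-0.047, 95% interval -0.23 to 0.14). Leaving out 1 array ended the call of 1435477_s_at and of 1455332_x_at whichever array it was (adjusted p = 0.0667 to 0.118 and 0.053 to 0.134), and that of 1435476_a_at for every array but SM replicate 3 (0.0546 to 0.126). Without SM replicate 2 these 3 had adjusted p = 0.0685, 0.134 and 0.126, and with array medians aligned 0.0783, 0.0888 and 0.0578.

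Among the Ifi200 genes, Ifi203 was higher in NZB through its own probe set, 1442828_at. It read 7.64, 7.67 and 7.75 in NZB livers, against 7.40, 7.39 and 7.27 in SM livers, with no overlap. The level was 1.26-fold higher in NZB (0.34, SE 0.067, 95% interval 0.19 to 0.49, limma adjusted p = 0.00986; 0.36 and 0.0284 without SM replicate 2). Of the 3 shared probe sets that list Ifi203 beside other loci, 1448775_at went the other way. It read 5.65, 5.75 and 5.77 in NZB livers, against 6.20, 6.16 and 6.06 in SM livers, and was lower in NZB under all 13 alternatives (-0.41, SE 0.067, adjusted p = 0.00406; -0.40 and 0.0208 without SM replicate 2). The remaining shared probe sets of this gene differed by -0.22 (1451567_a_at, adjusted p = 0.0925) and by -5.8e-05 (1425008_a_at). The probe sets that name Ifi203 therefore do not give 1 direction for the gene. They also differ in level: 1442828_at was above background on all 6 arrays. The shared 1448775_at was above it on 5 arrays, 1451567_a_at on 3 and 1425008_a_at on 0, all of them near or under background.

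Ifi202b, the Aim2 antagonist, did not differ past the threshold. Its own probe set, 1421551_s_at, read 8.25, 8.35 and 8.36 in NZB livers, against 7.77, 8.54 and 8.23 in SM livers. Both strains were well above background, and the SM range enclosed the NZB values. The difference was 0.14 (SE 0.16, 95% interval -0.22 to 0.51, limma adjusted p = 0.608), so a level up to 1.42-fold higher in NZB lies inside the interval. A probe set shared with another locus, 1457666_s_at, gave 7.86, 7.86 and 7.83 in NZB livers, against 6.98, 7.94 and 7.75 in SM livers (0.29, adjusted p = 0.38). In both probe sets SM replicate 1 was lowest of the 6 arrays. Without it the difference of 1421551_s_at was -0.062 (adjusted p = 0.742), and without SM replicate 2 it was 0.32 (0.175).

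SM replicate 1 was also the lowest SM array for most genes of the interferon response, a relation looked at after the Ifi202b values were seen. It had the lowest of the 3 SM readings in 23 of 30 measured genes of interferon induction and response, against 35.5% of all probe sets. The list counts 1 probe set per gene. Other lists varied, with 3 of 3 other Ifi200 genes, 7 of 11 Kupffer cell markers, 4 of 9 hepatocyte markers and 0 of 7 stellate cell markers. Among measured genes that lie between the members on the chromosome it was 27 of 57. The mean level of the 30 genes of interferon induction and response was 8.30, 8.41 and 8.43 on the NZB arrays, against 8.14, 8.40 and 8.38 on the SM arrays. The antiviral gene Ifit1 read 8.33, 8.54 and 8.59 in NZB livers, against 7.61, 8.39 and 8.47 in SM livers. Irf7, the regulator that amplifies the type I interferon response, read 8.61, 8.97 and 8.84 in NZB livers, against 8.26, 8.81 and 8.93 in SM livers. SM replicate 1 was again the lowest of the 6 in both genes, and the part of this in the Ifi202b readings was not tested.

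The other Ifi200 members read close to or under background. Aim2, through 1426619_at, read 5.84, 5.90 and 5.84 in NZB livers, against 5.95, 5.80 and 6.03 in SM livers, just above background in all, and the strains overlapped (-0.065, 95% interval -0.23 to 0.10, limma adjusted p = 0.606). Ifi204 stayed under background at 4.14 to 4.24 in NZB and 4.23 to 4.44 in SM (-0.14, 95% interval -0.31 to 0.020, adjusted p = 0.228). Mndal was under background as well. Its probe set 1426906_at read 4.31, 4.33 and 4.34 in NZB livers, against 4.19, 4.05 and 3.98 in SM livers, and was called higher (0.25, SE 0.07, adjusted p = 0.0407). That call ended without any array but SM replicate 1 (0.0866 to 0.121, and 0.119 without SM replicate 2), with array medians aligned (0.083) and after quantile normalization (0.058). The second Mndal probe set, 1452231_x_at, differed by 0.24 (adjusted p = 0.0885) and passed the test without SM replicate 2 (0.31, 0.0473). Ifi205 was read through shared probe sets alone, 1452348_s_at (0.17, adjusted p = 0.409) and 1452349_x_at (0.13, adjusted p = 0.349).

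**Figure D2:**
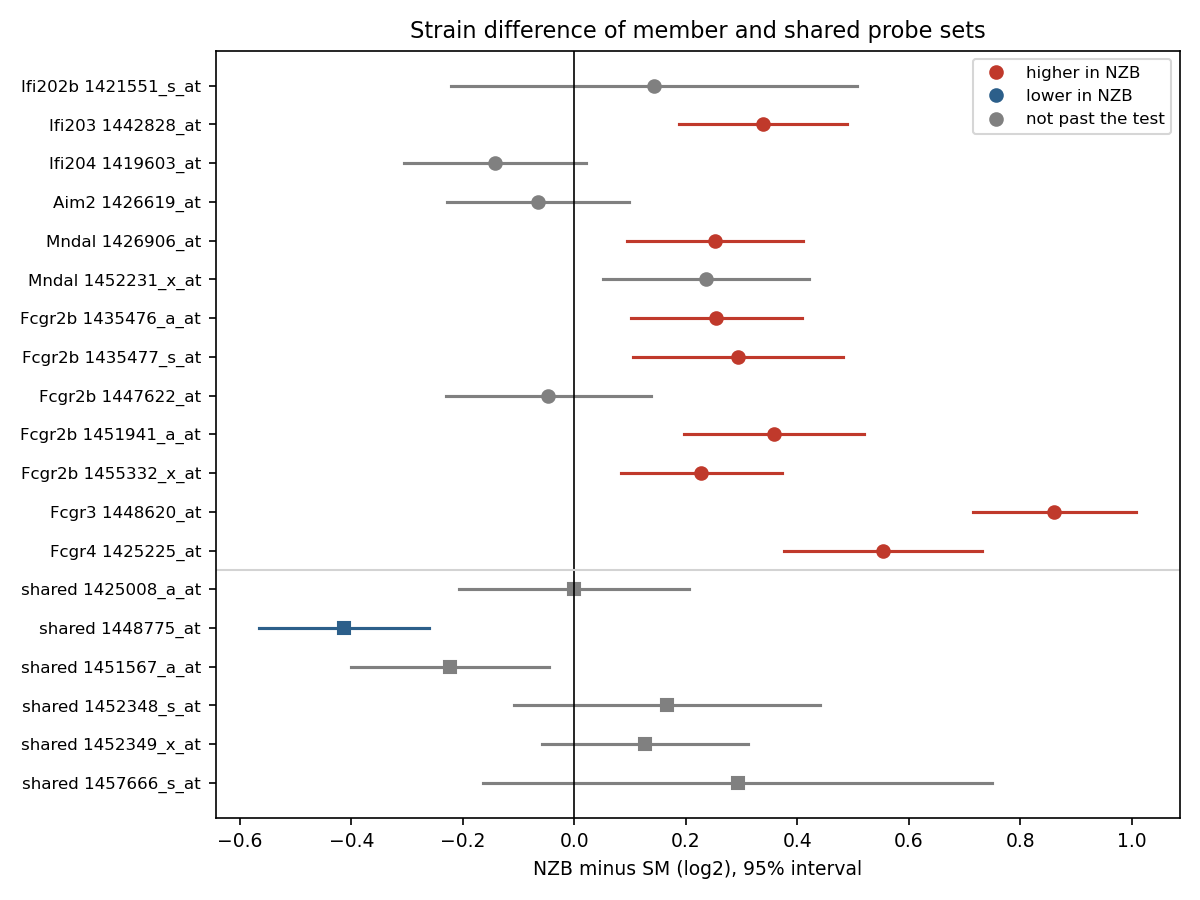
Log2 difference (NZB minus SM) and its 95% interval from limma, for the 13 member probe sets (circles) and the 6 probe sets shared between a member and other genes (squares), red where higher and blue where lower in NZB past the test. The intervals of Fcgr3 and Fcgr4 lie farthest from 0 at 0.72 to 1.01 and 0.38 to 0.73, and the shared probe set 1448775_at lies on the opposite side of 0 from the Ifi203 probe set 1442828_at.

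Of the 3 other Ifi200 family genes with a probe set of their own, limma called 0, against 18.3% of all genes. Ifi207 differed by -0.21 (adjusted p = 0.207), Ifi209 by 0.067 (0.613) and Ifi213 by -0.064 (0.542), all under background, and 0 had an unadjusted p under 0.05.

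The members were then set beside the genes that RefSeq orders between Fcgr2b and Ifi205, the outermost members. Of 144 such genes that are no members, 57 were measured, each through its brightest probe set. Of these, 7 were called higher in NZB and 4 lower, against 7.09% and 11.2% of all 18193 genes (18.3% in either direction). The median difference was 0.062, against 0.021 over all genes. The largest difference was that of Apcs, the gene of serum amyloid P, a plasma pentraxin that binds chromatin. It read 13.1, 13.0 and 12.9 in NZB livers, against 11.9, 11.7 and 11.5 in SM livers, and was 2.42-fold higher in NZB (1.28, SE 0.098, limma adjusted p = 6.94e-05). Pcp4l1, a relative of the calmodulin regulator Pcp4, was 2.24-fold higher (1.17, SE 0.16, adjusted p = 0.00184).

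Fcer1g, the signalling chain that Fcgr3 and Fcgr4 need at the cell surface, lies in the same interval. It read 8.87, 8.89 and 8.90 in NZB livers, against 8.33, 8.47 and 8.40 in SM livers, and was 1.40-fold higher in NZB (0.48, SE 0.063, limma adjusted p = 0.00125; 0.52 and 0.00404 without SM replicate 2). The strains did not overlap, as for the receptors. Usf1, a transcription factor gene named after its values were seen, was higher by 0.44 (adjusted p = 0.00174). The lower genes were the junction protein gene F11r (-0.36, adjusted p = 0.0213), the death effector domain gene Dedd (-0.31, 0.0228), the prefoldin subunit gene Pfdn2 (-0.30, 0.0096) and Nit1 (-0.21, 0.0455). F11r lost its call when NZB replicate 2 or 3 or SM replicate 1 or 2 was left out (0.0563 to 0.0873), and Dedd when NZB replicate 1 or 2 or SM replicate 1 or 2 was (0.0616 to 0.083). F11r did not pass over the mean of its probe sets (-0.12, 0.109), nor Dedd and Pfdn2 after quantile normalization (-0.23, 0.0574 and -0.21, 0.0552). The lower genes numbered 1 without NZB replicate 2 or SM replicate 2, and 2 without NZB replicate 1, NZB replicate 3 or SM replicate 1.

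**Figure D3:**
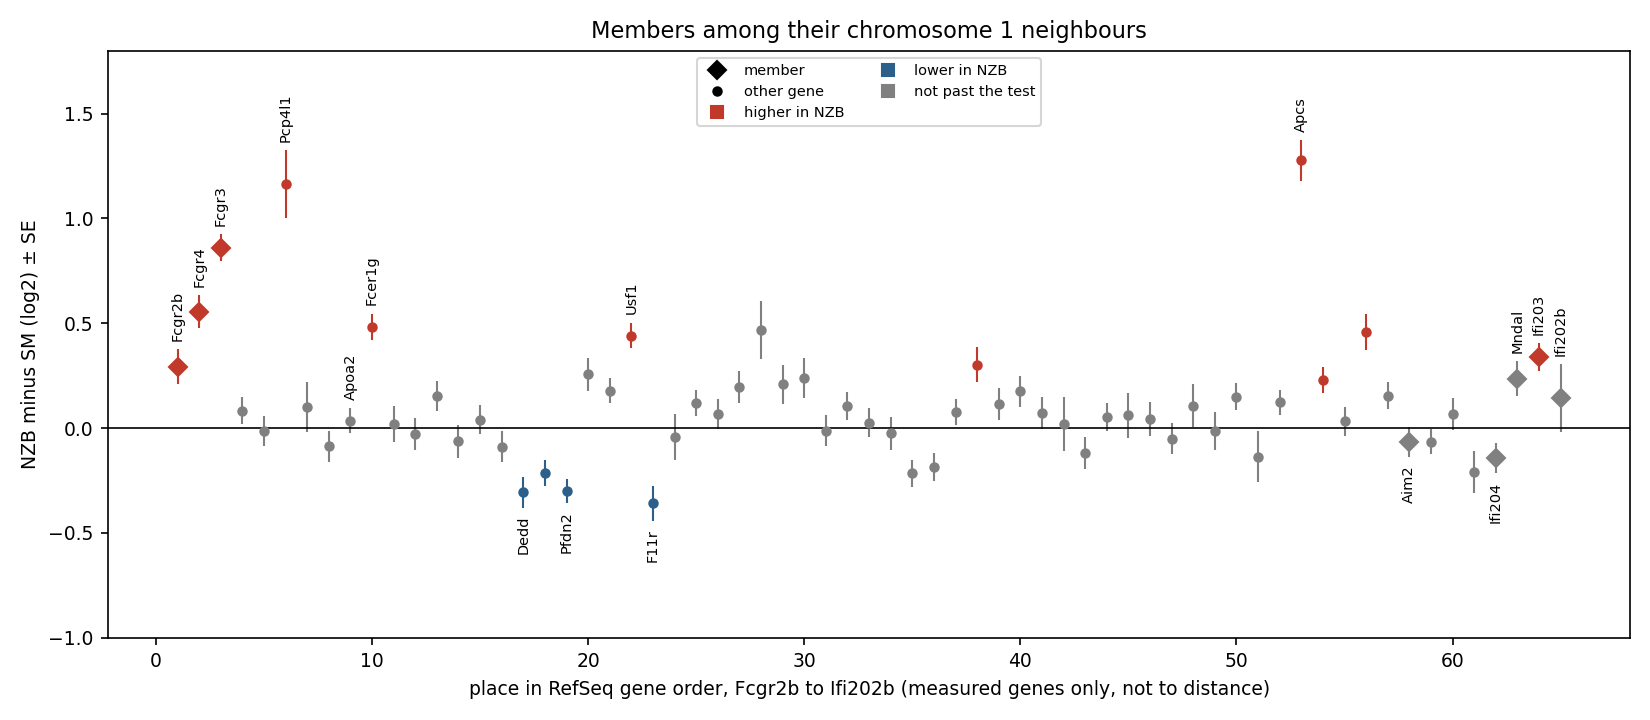
Log2 difference (NZB minus SM, error bars ± SE) of the 65 measured genes between Fcgr2b and the Ifi200 genes, in RefSeq gene order and not to distance; diamonds are members, circles other genes, red higher and blue lower in NZB past the test. The order starts with Fcgr2b, Fcgr4 and Fcgr3 above 0 at 0.29, 0.55 and 0.86, while most genes after them stay near 0.

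Of 20 measured partners and signalling genes of Fc receptors, Fcer1g was the 1 gene higher in NZB, and 2 were lower, with a median difference of 0.080. These counts were near the shares of all genes, 7.09% higher and 11.2% lower. The lower genes were Trim21, a cytosolic antibody receptor (-0.36, SE 0.063, limma adjusted p = 0.00603), and Pigr, which carries polymeric IgA and IgM across epithelia (-0.35, SE 0.072, adjusted p = 0.013). Pigr no longer passed without NZB replicate 2, NZB replicate 3 or SM replicate 2 (0.0519 to 0.059). Fcgr1, the high-affinity activating receptor that lies elsewhere in the genome, differed by 0.17 (adjusted p = 0.188), Fcgrt, which recycles IgG, by -0.29 (0.0507), and the kinase gene Syk by 0.032 (0.797).

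Of 19 measured genes of inflammasomes and DNA sensing, 4 were called higher and none lower, with a median of 0.075. Of all genes, 7.09% were higher and 11.2% lower. Dnase2a, the lysosomal DNase, read 9.32, 9.36 and 10.3 in NZB livers, against 7.72, 8.15 and 8.16 in SM livers, and was 3.12-fold higher in NZB (1.64, SE 0.23, limma adjusted p = 0.00217). The name of its probe set marks it as possibly cross-reading. Without such probe sets Dnase2a had no value, and 3 genes of the list were higher. Zbp1, a sensor of Z-form nucleic acid, was higher by 0.55 (adjusted p = 0.00851), Casp4, the mouse caspase of the non-canonical inflammasome, by 0.30 (0.0201) and Il1b by 0.27 (0.0257). The partners through which Aim2 acts did not pass: Pycard differed by -0.22 (0.22), Casp1 by 0.15 (0.141) and Gsdmd, the pore-forming protein, by 0.075 (0.488). The DNA sensor Cgas differed by 0.0084 and its adaptor Sting1 by 0.044. Without NZB replicate 2 or SM replicate 2, 2 genes were higher, and Casp4 lost its call without NZB replicate 1, NZB replicate 2, SM replicate 1 or SM replicate 2 (0.0509 to 0.065).

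Of 30 measured genes of interferon induction and response, 4 were called higher and 3 lower, with a median of 0.081. The shares of all genes were 7.09% higher and 11.2% lower, so the lower count was near that of all genes. Ifi47, an interferon gamma-inducible GTPase, was 2.09-fold higher in NZB (1.06, SE 0.098, limma adjusted p = 0.000203), and the antiviral gene Rsad2 was 1.40-fold higher (0.49, adjusted p = 0.00596). Irf1 (0.35, 0.0235) and Bst2 (0.26, 0.0471) were higher too, and Gbp3 (-0.46, 0.0163), Jak1 (-0.34, 0.00616) and the interferon receptor gene Ifnar1 (-0.30, 0.027) were lower. Leaving out NZB replicate 2, NZB replicate 3, SM replicate 2 or SM replicate 3 left 2 higher genes and ended the call of Irf1 (0.0606 to 0.0936). The lower genes numbered 5 without SM replicate 1 and 1 without SM replicate 2. Gbp3 lost its call without NZB replicate 1 or SM replicate 2 (0.0556 and 0.0664), and Ifnar1 without NZB replicate 3, SM replicate 1 or SM replicate 2 (0.0634 to 0.0895) and after quantile normalization (0.0627). Over the mean of the probe sets of each gene, Jak1 (-0.17, 0.155) and Ifnar1 (-0.13, 0.177) did not pass.

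Some markers of the cells that carry Fc gamma receptors differed between the strains as well, though not all in 1 direction. Of 11 measured Kupffer cell markers, 8 were called higher in NZB and 1 lower, with a median of 0.38. The shares of all genes beside this and the other marker counts are 7.09% higher and 11.2% lower. Their mean level was 9.54 to 9.79 on NZB arrays and 9.27 to 9.45 on SM arrays. Cd5l, a secreted macrophage protein, was higher by 0.75 (limma adjusted p = 0.00102) and the macrophage marker Adgre1 by 0.65 (0.0004), whereas the scavenger receptor gene Marco was lower (-0.66, 0.0155) and Clec4f, the lectin that marks Kupffer cells, differed by 0.033 (0.845). Marco did not pass without NZB replicate 1 or NZB replicate 3 (0.056 and 0.0588). In whole liver, more cells of a type and more RNA per cell cannot be told apart.

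Of 10 sinusoidal endothelial markers, 4 were called higher in NZB and 2 lower, with a mean level of 8.82 to 8.93 on NZB arrays and 8.71 to 8.78 on SM arrays. The median difference of these markers was 0.10. The scavenger receptor gene Stab2 was higher by 0.97 (limma adjusted p = 0.00277) and Dnase1l3 by 0.55 (0.00239), while Lyve1 (-0.65, 0.00106) and the lectin gene Clec4g (-0.34, 0.00936) were lower. Over the mean of the probe sets of each gene, Clec4g lost its call (-0.16, 0.086), while Dnase1l3 differed by 1.63 and Lyve1 by -1.46, both still called. Among 9 B and plasma cell markers 4 were higher and none was lower, led by the IgM heavy chain gene Ighm (4.35) and Jchain (4.28), and their mean level was 7.43 to 7.79 on NZB arrays and 6.40 to 6.47 on SM arrays. The list's median difference was 0.29, and Ighm differed by 0.94 over the mean of its probe sets (adjusted p = 0.00016). Of 9 monocyte and dendritic cell markers 2 were higher, Lyz2 by 2.32 and Plac8 by 0.91, with a mean level of 7.50 to 7.56 on NZB arrays and 7.07 to 7.12 on SM arrays and a median difference of 0.11. Of 7 neutrophil markers 3 were higher, among them S100a8 (1.00) and S100a9 (0.51), with 7.14 to 7.38 on NZB arrays and 6.85 to 6.93 on SM arrays and a median of 0.24. Of 9 T and NK cell markers 4 were higher, among them Cd3g (0.34, under background on all arrays) and Cd3e (0.33), with 6.74 to 6.79 on NZB arrays and 6.51 to 6.65 on SM arrays and a median of 0.25. Cd3e lost its call without NZB replicate 1, NZB replicate 2, SM replicate 1 or SM replicate 2 (0.0632 to 0.11).

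Under background on all arrays were 2 monocyte and dendritic cell markers, 1 B and plasma cell marker, 1 T and NK cell marker (Cd3g) and 1 bile duct marker, and no Kupffer, neutrophil or endothelial marker. Of 7 stellate cell and 4 bile duct markers limma called 0, with 3 and 1 at an unadjusted p under 0.05, and of 9 hepatocyte markers 2 were lower, Hnf4a (-0.38) and Tdo2 (-0.33). Hnf4a lost its call without SM replicate 2 (0.0513), without the probe sets whose names mark them as possibly cross-reading (0.0602) and over the mean of its probe sets (-0.25, 0.136), and Tdo2 without any array but SM replicate 3 (0.0524 to 0.0877). The part of these marker differences in the values of the Fc gamma receptors was not tested.

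**Figure D4:**
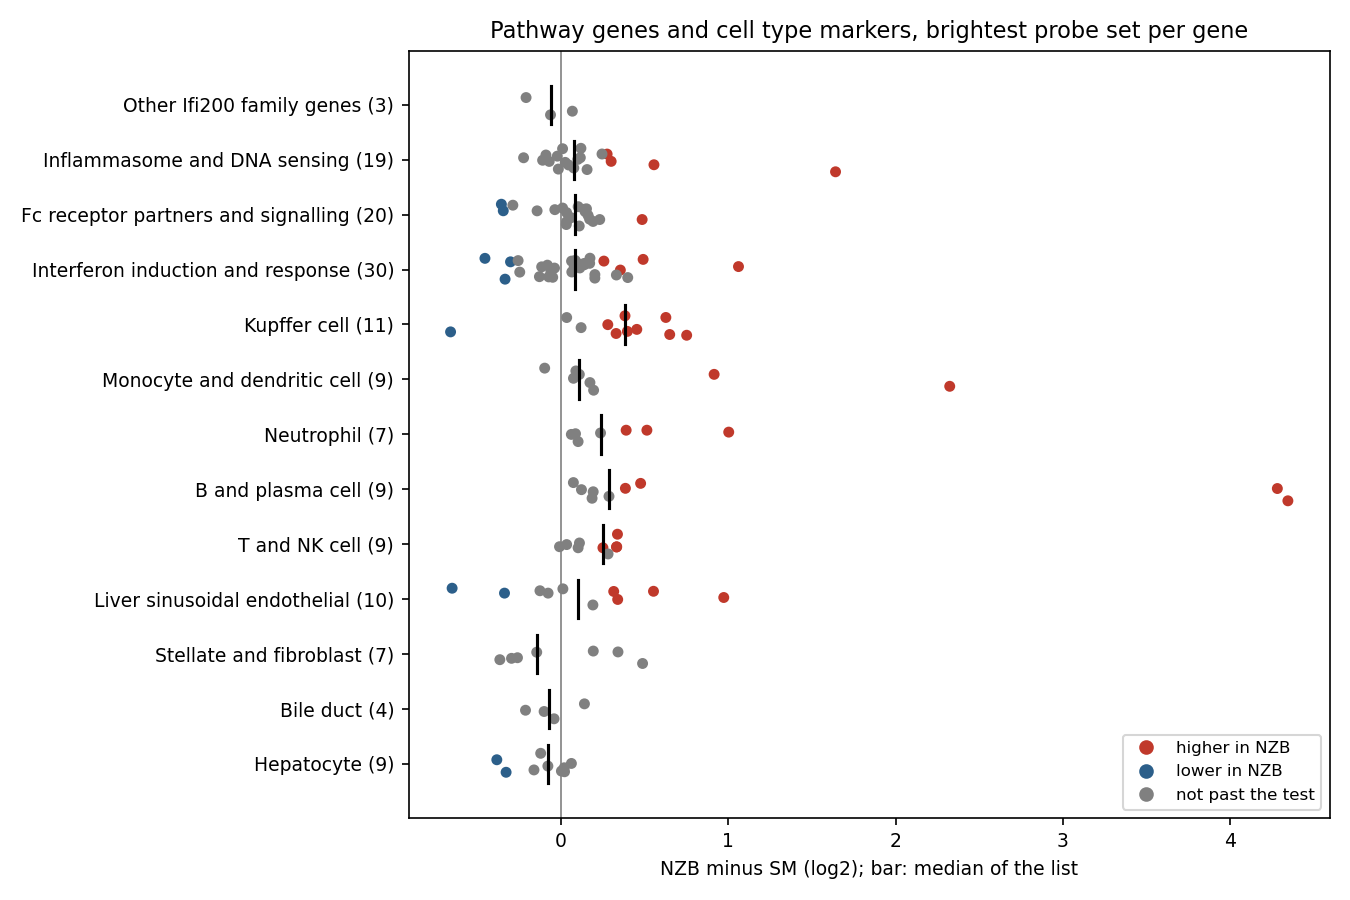
Log2 difference (NZB minus SM) of every measured gene in 4 pathway lists and 9 cell type marker lists, 1 point per gene through its brightest probe set, red where higher and blue where lower in NZB past the test; the bar is the list's median and the number in parentheses the genes measured. The Kupffer cell list has its median at 0.38 and the sinusoidal endothelial list at 0.10, while the medians of the pathway lists stay within 0.1 of 0.

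Over the 6 arrays, the genes whose profile was most like that of Fcgr3, among 284 genes with a difference of at least 2-fold, were Gm13306, Hnf4aos, Slco2a1, Cd44 and Cd276, with Pearson's r of 0.993 to 0.996. The 6 points share their strains, and all 5 genes were higher in NZB, by 1.03 to 1.38.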

How the data were processed

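Liver RNA of 3 NZB and 3 SM females was measured on 1-colour expression arrays. The authors deposited 1 table of log2 expression values per probe set and mouse. Per the submitters' processing notes they used RMA, which corrects background, normalizes arrays and summarizes probes; no version or setting is stated. The log2 scale was read from the values, 3.43 to 14.9, under the 16-bit limit of 16. RMA compresses differences near background, and the number of arrays limits the precision of every value. All columns carried a sample name.

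Probe sets were named through the platform annotation (34945 with 1 gene, 932 with several, 9160 with none). Entrez IDs of 34741 led to current RefSeq symbols (GRCm38.p6), and RefSeq also gave gene order and promoter letters. Tests used limma 3.58.1 under R 4.3.3, with lmFit and eBayes, two-sided, over all 45037 probe sets, and the code was tested on simulated data. For lists and neighbours a gene was its brightest probe set. Members and lists were chosen with earlier results of these data known. All members are named. From a list or the neighbours, up to 3 called genes per direction with the largest differences are named, and up to 2 from a marker list. Usf1, Nit1, Il1b, Bst2, Ifit1, Irf7, Clec4f and the pathway genes that did not pass were chosen after their values were seen. Sequence differences between the strains under the probes were not analysed here. The labels describe the mice as biological replicates.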

Additional observations from a re-analysis of the deposited data

How the results depend on the processing

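The results were recomputed under 15 alternatives. Fcgr3, Fcgr4, Ifi203 (1442828_at), Fcgr2b (1451941_a_at) and the shared probe set 1448775_at kept their direction and call under each of the 13 that apply to a single probe set. Over the 13 member and 6 shared probe sets, 33 recomputed values lost a call, 3 gained one and 5 turned sign. With 1 array left out, 4 to 5 member probe sets were higher in NZB, 1 to 3 neighbours were lower, 0 to 1 other Ifi200 gene was lower, 2 to 4 inflammasome and DNA sensing genes were higher, 1 to 3 Fc receptor partners were lower, and 2 to 4 interferon genes were higher and 1 to 5 lower. Over all probe sets, 1482 to 2482 were higher with 1 array left out, against 2745 with all arrays. With the replicate block 4 member probe sets and 2 interferon genes were higher, and with array medians aligned 4 member probe sets. Over all probe sets, 2398 were higher with the replicate block and 2080 with array medians aligned. After quantile normalization 1 neighbour was lower and 3 Fc receptor partners were higher; with the mean of the probe sets of a gene, 2 Fc receptor partners were higher and 1 interferon gene was lower. The cause of these moves was not tested. The values that turned sign were never called and belong to leave-one-out settings: Ifi202b 1421551_s_at without SM replicate 1 (-0.062; range -0.062 to 0.32), Fcgr2b 1447622_at without SM replicate 3 (0.020; -0.12 to 0.020) and the shared 1425008_a_at without NZB replicate 2, SM replicate 2 or SM replicate 3 (0.076, 0.049 and 0.022; -0.071 to 0.076). Same-numbered mice of the strains share only a number: their deviations from the strain means correlated at 0.037, -0.055 and 0.025 over probe sets, and not every mouse correlated best with its own number. The replicate block ended the calls of Mndal 1426906_at (adjusted p = 0.0674), of Fcgr2b 1435476_a_at, 1435477_s_at and 1455332_x_at (0.0674, 0.0743 and 0.0614), of Irf1 (0.0521) and of Cd3e (0.0576). Array weights ended the call of 1435477_s_at (0.0562) and the trend and robust variances that of 1455332_x_at (0.0503). By gene, 4 of 8 members were higher through the brightest probe set and 5 with the mean of the probe sets, Mndal being added. Of all 18193 genes, 7.09% were higher through the brightest probe set with p adjusted over all probe sets. With the fit and the adjustment over genes, 1541 were higher through the brightest probe set and 1568 with the mean. Readings near background limit Aim2, Ifi204, Ifi205, Mndal and the shared probe sets that list Ifi203.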
